A study of Mus musculus with 10 samples.

Results

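The imprinted growth genes described here are 10 genes, Plagl1, Mest, Sgce, Ndn, Peg3, Dlk1, Igf2, H19, Slc38a4 and Igf2r. They were chosen by name, with earlier results of these data known. Every array probe set that the platform's gene table lists under one of these symbols was taken, 29 of 45037 probe sets. For 9 of the genes at least 1 probe set is listed under that gene alone, and the brightest of these on average stood for the gene among 18193 genes tested. The only probe set of H19 is listed for both Mir675 and H19, since the microRNA is cut from the H19 transcript, and it is reported from a fit over all 45037 probe sets. Another probe set of Igf2r is shared with Airn, the antisense RNA of that locus, and was kept out of the gene's own value.

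RNA was measured on 10 Affymetrix arrays from secondary, inducible mouse embryonic fibroblasts (MEFs) of a 129/SvJ x C57/B6 hybrid strain, in 5 groups of 2. Secondary inducible fibroblasts carry the reprogramming factors under a doxycycline-responsive promoter, in the control as well as in the induced cells. The control was left uninduced for 96 h in 0.5% serum. The 4 induced cohorts received doxycycline (labelled 2 ug/ul) in 15% serum for 96 h and had completed, on average, 0, 1, 2, or 3 or more divisions. Every comparison with the control therefore differs in doxycycline and in serum at once, and those of the divided cohorts may differ in division too, which cannot be told apart. The sources used here do not say by which method cells were sorted into division cohorts. By registration, 4 arrays (the control and 3 or more divisions) form an earlier set and the remaining 6 a later one. Comparisons that cross these sets cannot be told apart from a difference between them, and those within a set are 3 or more divisions against control and 2 divisions against 0. The labels name biological replicates in the earlier set and only replicates in the later one. They mention no separate cultures, so p-values measure the spread between these samples, which may be technical.

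Imprinted genes are expressed mainly from the copy inherited from 1 parent. DNA methylation laid down in the egg or the sperm marks the parental copies differently. Many paternally expressed ones, such as Igf2, favour fetal growth, and several maternally expressed ones, such as H19 and Igf2r, restrain it. Many are active in embryonic tissues and fibroblasts and decline after birth. The arrays summed both parental copies, so the imprint itself was not measured.

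The start regions of 3 of the genes that fell and of the one that rose are shown, because they differ in sequence while Plagl1, Mest and Peg3 moved the same way. RefSeq start regions (build GRCm38.p6, 250 bases before to 50 after the start) matched 8 of the 10 genes with 15 promoters, and Sgce and H19 had none in that table. Capitals mark TGCCGC or its reverse complement GCGGCA, the hexamer that the imprint-protecting zinc finger protein ZFP57 recognises when it is methylated.
Plagl1, chr10:13090582-13090881, plus strand: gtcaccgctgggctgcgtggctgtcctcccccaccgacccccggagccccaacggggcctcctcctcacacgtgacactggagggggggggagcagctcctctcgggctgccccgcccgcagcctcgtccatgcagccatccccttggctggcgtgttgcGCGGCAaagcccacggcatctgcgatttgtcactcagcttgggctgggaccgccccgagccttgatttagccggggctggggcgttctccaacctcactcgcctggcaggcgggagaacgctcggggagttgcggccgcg
Mest, chr6:30737800-30738099, plus strand: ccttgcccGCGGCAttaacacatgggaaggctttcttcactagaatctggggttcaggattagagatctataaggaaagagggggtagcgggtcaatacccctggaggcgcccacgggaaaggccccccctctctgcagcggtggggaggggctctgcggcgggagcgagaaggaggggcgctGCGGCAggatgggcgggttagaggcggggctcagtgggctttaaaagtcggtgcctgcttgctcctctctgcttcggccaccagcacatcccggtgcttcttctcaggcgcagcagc
Peg3, chr7:6730370-6730669, minus strand: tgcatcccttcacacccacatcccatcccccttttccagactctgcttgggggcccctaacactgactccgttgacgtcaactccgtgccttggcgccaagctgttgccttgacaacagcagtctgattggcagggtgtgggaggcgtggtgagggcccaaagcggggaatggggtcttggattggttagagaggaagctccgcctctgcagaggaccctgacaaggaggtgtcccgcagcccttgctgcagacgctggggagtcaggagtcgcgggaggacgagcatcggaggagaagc
Slc38a4, chr15:97055907-97056206, minus strand: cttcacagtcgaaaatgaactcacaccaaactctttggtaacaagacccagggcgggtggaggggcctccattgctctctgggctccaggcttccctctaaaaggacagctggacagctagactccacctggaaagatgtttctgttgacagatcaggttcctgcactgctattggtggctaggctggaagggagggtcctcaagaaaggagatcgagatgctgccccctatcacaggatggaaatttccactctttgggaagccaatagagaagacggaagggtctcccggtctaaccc

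Searched on both strands, the hexamer was found in 4 of the 15 promoters, of the 3 genes Plagl1, Mest and Igf2. The 4 include Mest windows starting at 30737800 and 30737803, which overlap almost wholly and share their matches, so they are not independent. The remaining Mest and Igf2 windows held none. The hexamer occurs in 11.6% of all 32851 promoters of that length. The window of Plagl1 held 1 match, 90 bases before the start, and the Mest window shown held 2. The windows shown for Peg3 and Slc38a4 held none, which says only that these letters are not in these windows. The GC-rich octamer GGGGCCCC, which overlaps no hexamer match there, was found in the Peg3 window alone of the 15, against 1.08% of all promoters. The windows also differed in CpG dinucleotides, the sites of DNA methylation, with 26 in Plagl1, 17 in Mest, 13 in Peg3 and 5 in Slc38a4, against a median of 7 over all promoters. Of the windows not shown, that of Igf2r held 34, that of Ndn 11 and that of Dlk1 9. Those of Mest held 8 and 17, those of Igf2 from 2 to 24, and those of Slc38a4 5 each.

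The shared probe set of H19 also covers the transcript that yields 2 mature microRNAs, shown with the seed (bases 2 to 8) in capitals because the array reads the host transcript and not these products.
mmu-miR-675-5p: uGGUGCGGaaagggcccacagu
mmu-miR-675-3p: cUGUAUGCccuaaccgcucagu
The seeds differ, so they would be grouped apart as regulators of target RNAs. Their own levels were not measured.

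In cells with 3 or more divisions 6 of the 9 genes with a probe set of their own fell against the control and 1 rose (limma, Benjamini-Hochberg adjusted p under 0.05 over all genes). Plagl1, Mest, Sgce, Ndn, Peg3 and Dlk1 fell, by 2.46-fold to 15.3-fold, and Slc38a4 rose 3.57-fold. The H19 and Mir675 probe set fell 9.62-fold, whereas Igf2 and Igf2r did not pass. Of all genes tested 27.6% were called in this comparison, 11.7% lower and 15.9% higher. The median change of the 9 genes was -1.82 on the log2 scale, against 0.02 over all genes. Since the members were chosen with earlier results of these data known, this contrast is a description and not a test. The 9 genes were also bright, and even the dimmest, Slc38a4, lay above 56.9% of all genes on average. In these bulk RNA samples fewer cells that express a gene and less of its RNA per cell cannot be told apart.

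**Figure D1:**
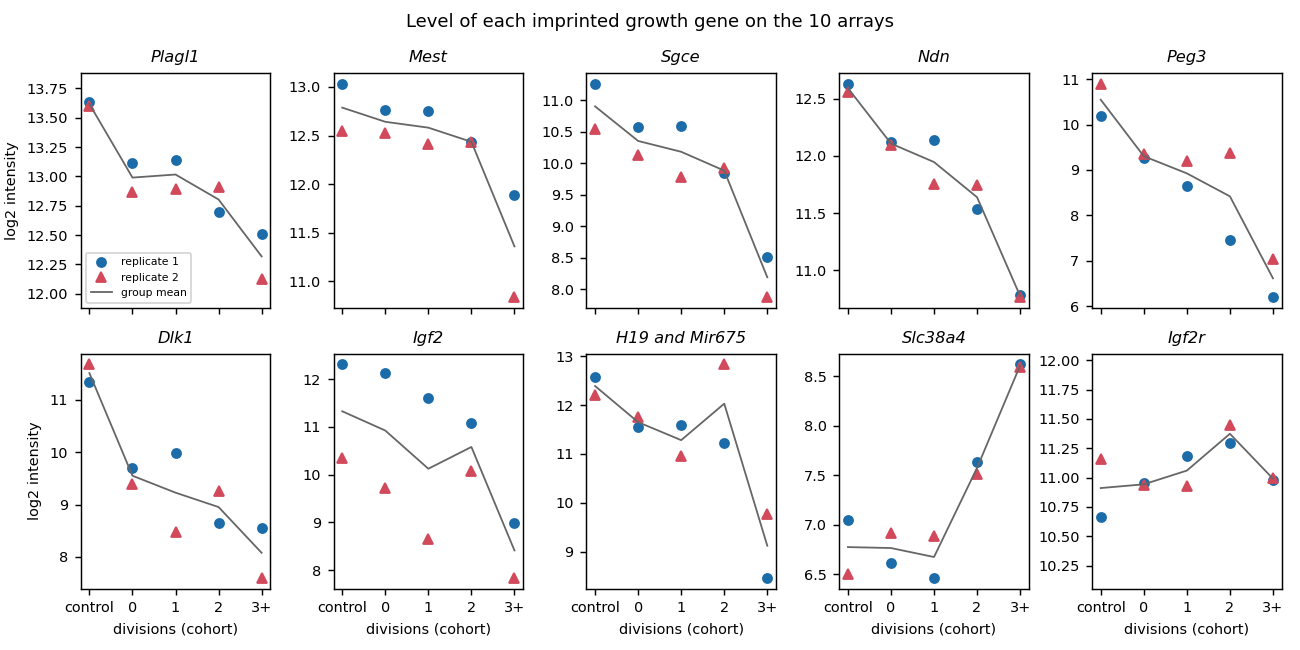
Log2 intensity (vertical axis, each panel with its own range) of the probe set that stands for each gene, on the control and the cohorts of 0, 1, 2 and 3 or more divisions (horizontal axis). Circles are replicate 1, triangles replicate 2 and lines join the group means, and in 9 of the 10 panels both last arrays lie below both arrays of the cohort before.

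Plagl1 encodes a zinc finger transcription factor that restrains cell proliferation and acts on other imprinted genes. Its log2 intensity was 13.63 and 13.60 on the control arrays, 13.12 and 12.86 at 0 divisions, 13.14 and 12.90 at 1, 12.69 and 12.91 at 2, and 12.51 and 12.13 at 3 or more. The control arrays were the highest and those of 3 or more divisions the lowest, and neither pair overlapped any other group. The change of -1.30 ± 0.17 (SE, limma, adjusted p = 0.00129) was the smallest in size of the 6 decreases. Both other probe sets of the gene fell by more, by up to 2.17, so that rank depends on the probe set taken.

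Peg3, another large zinc finger protein, from an imprinted cluster on chromosome 7, had the largest decrease of the members. It read 10.20 and 10.90 in the control, 9.26 and 9.35 at 0 divisions, 8.65 and 9.20 at 1, 7.46 and 9.38 at 2, and 6.19 and 7.03 at 3 or more. Both control arrays lay above all 8 induced ones, and both arrays of 3 or more divisions lay below the rest. The change was -3.94 ± 0.58 (SE, limma, adjusted p = 0.00213), a 15.3-fold decrease. Of its 5 probe sets 3 fell, by 3.42 to 3.94. The other two read under 3.6 on every array and did not pass.

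Ndn encodes necdin, a MAGE family protein that restrains growth and is best known from neurons and the Prader-Willi region. Its intensity was 12.63 and 12.56 in the control, 12.12 and 12.10 at 0 divisions, 12.14 and 11.76 at 1, 11.54 and 11.74 at 2, and 10.79 and 10.77 at 3 or more. The 2 arrays of a group differed most at 1 division, by 0.38, and only the cohorts of 0 and 1 division overlapped. Ndn had the smallest error of the members, with a change of -1.82 ± 0.15 (SE, limma, adjusted p = 0.000268). Of its 8 probe sets 5 fell, by 1.53 to 1.83, and the remaining 3 read under 5 on every array.

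Among the secreted or membrane-bound growth signals, Dlk1, a Delta-like transmembrane protein that holds back adipocyte differentiation, read 11.34 and 11.68 in the control. The induced arrays read 9.71 and 9.40 at 0 divisions, 9.98 and 8.48 at 1, 8.65 and 9.26 at 2, and 8.56 and 7.60 at 3 or more. Every induced array lay below both control arrays, while neighbouring induced cohorts overlapped up to 2 divisions. The change at 3 or more divisions was -3.43 ± 0.50 (SE, limma, adjusted p = 0.00196), a 10.8-fold decrease. Its dimmer second probe set fell by 1.23.

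Igf2, the fetal insulin-like growth factor, differed between the replicate numbers by more than the other members did on average. Replicate 1 read 12.31 in the control, then 12.14, 11.60, 11.09 and 8.99 from 0 to 3 or more divisions. Replicate 2 read 10.35 in the control, then 9.71, 8.65, 10.07 and 7.84. Replicate 1 was the higher in 5 of 5 groups, by 1.02 to 2.95, so all neighbouring groups up to 2 divisions overlapped. The mean fell by 2.92 from the control to 3 or more divisions, with an SE of 1.16 and an adjusted p of 0.103 (limma). With the replicate number as a block the adjusted p was 0.000793 (8 of the 9 genes then passed, and 37.8% of all genes), and in a fit of the 4 arrays compared it was 0.0498. The second probe set showed the same order of replicates in 5 of 5 groups and a change of -1.37.

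H19, a noncoding RNA that shares enhancers with Igf2 and is expressed from the other parental copy, was read with Mir675 by a single probe set. It read 12.58 and 12.20 in the control, 11.56 and 11.75 at 0 divisions, 11.60 and 10.96 at 1, 11.23 and 12.83 at 2, and 8.47 and 9.78 at 3 or more. The second array at 2 divisions was the highest of all 10, and both arrays of 3 or more divisions lay below the rest. Over all probe sets the change was -3.27 ± 0.55 (SE, limma, adjusted p = 0.00434).

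Igf2r encodes the receptor that removes IGF2 from the cell surface and carries enzymes to the lysosome. Its values were 10.66 and 11.16 in the control, 10.95 and 10.93 at 0 divisions, 11.19 and 10.93 at 1, 11.30 and 11.45 at 2, and 10.98 and 11.00 at 3 or more. The 2 control arrays spanned the values of all other groups except those of 2 divisions and 1 array of 1 division. The change at 3 or more divisions was 0.08 ± 0.17 (SE, limma, adjusted p = 0.792), with a 95% confidence interval of -0.32 to 0.48. The 3 probe sets, the one shared with Airn included, changed by -0.0031 to 0.08 in that comparison.

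Mest, an alpha/beta hydrolase family enzyme, read 13.03 and 12.54 in the control, 12.76 and 12.52 at 0 divisions, 12.75 and 12.41 at 1, 12.44 and 12.44 at 2, and 11.88 and 10.84 at 3 or more. Each group up to 2 divisions overlapped with the one before it, and the cohort of 3 or more divisions lay below all others. The change was -1.43 ± 0.32 (SE, limma, adjusted p = 0.0134). This call was lost without control replicate 1 (adjusted p = 0.0794) and without replicate 2 of the induced cohort (adjusted p = 0.0553). In a fit of the 4 arrays compared its adjusted p was 0.0605.

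Sgce, the epsilon subunit of the sarcoglycan complex that links the membrane to the cytoskeleton, read 11.26 and 10.55 in the control and 8.51 and 7.87 at 3 or more divisions. Between them it read 10.58 and 10.13 at 0 divisions, 10.59 and 9.78 at 1, and 9.84 and 9.93 at 2. Groups up to 2 divisions overlapped with their neighbours, and the cohort of 3 or more lay more than 1 log2 unit below every other array. The change was -2.72 ± 0.35 (SE, limma, adjusted p = 0.00122), a 6.57-fold decrease. The dim second probe set of Sgce changed by -0.35 and did not pass.

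Slc38a4, an amino acid transporter of the system A family that is abundant in placenta and liver, was the member that rose. It read 7.04 and 6.50 in the control, 6.61 and 6.91 at 0 divisions, 6.46 and 6.88 at 1, 7.64 and 7.52 at 2, and 8.62 and 8.60 at 3 or more. The first 3 groups overlapped, and the other 2 each lay above all groups before them. The change was 1.84 ± 0.21 (SE, limma, adjusted p = 0.000808), and the second probe set rose by 2.17.

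**Figure D2:**
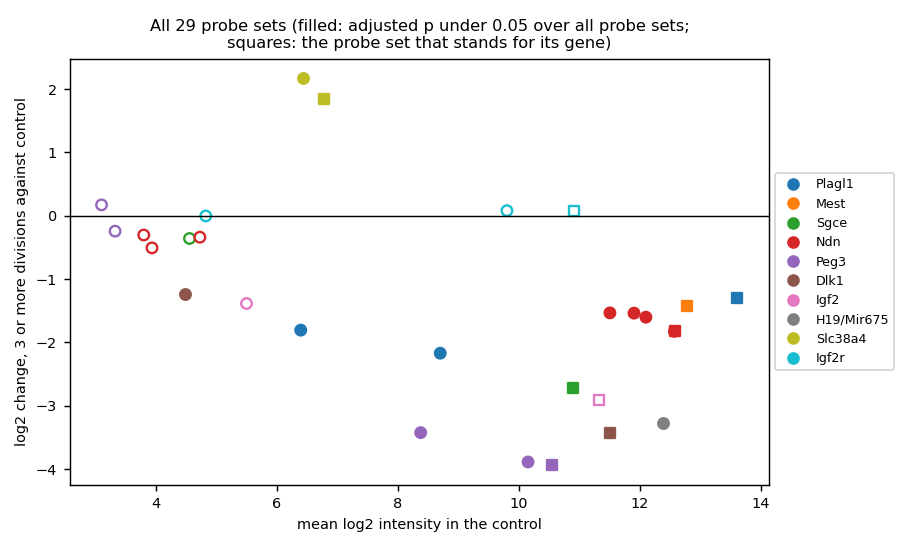
Log2 change from control to 3 or more divisions (vertical axis) against the mean log2 intensity in the control (horizontal axis) for all 29 probe sets, squares being those that stand for their gene. Filled points passed over all probe sets, 16 lower and 2 higher, and most open points are the dimmest probe sets.

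Counted by probe set, 16 of the 29 fell and 2 rose at 3 or more divisions, where 20.7% of all probe sets were called, 9.38% lower and 11.3% higher. The median over the 29 was -1.43. No gene had probe sets called in opposite directions. No detection calls were used here, so which probe sets lay above background is not known.

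Cells that had been induced but had not divided showed smaller differences from the control, and 0 of the 9 genes passed, where 0.297% of all genes did. At an unadjusted p under 0.05 limma counted 3 of them, Plagl1, Ndn and Dlk1, all lower, and 2136 of all genes (11.7%). With the replicate block 0 members passed too, where 3.25% of all genes did. Dlk1 read 1.96 ± 0.50 (SE) below the control (limma, adjusted p = 0.167), Peg3 1.25 below (adjusted p = 0.472), Plagl1 0.63 below (adjusted p = 0.189) and Ndn 0.48 below (adjusted p = 0.233). Both arrays of undivided cells lay below both control arrays for 5 of the 10 genes, those and H19, as for 19.3% of all genes. The intervals of Slc38a4 (-0.50 to 0.48) and Igf2r (-0.37 to 0.43) spanned 0 with bounds near a change of 0.5.

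After 1 division 0 of the 9 genes passed as well, against 1.24% of all genes. At an unadjusted p under 0.05 limma counted 4, Plagl1, Ndn, Peg3 and Dlk1, and 2669 of all genes (14.7%). These changes were -0.60, -0.65, -1.62 and -2.28. With the replicate block 3 of them fell, Dlk1 (adjusted p = 0.023), Peg3 (adjusted p = 0.0326) and Ndn (adjusted p = 0.0356), where 2.55% of all genes were lower and 7.02% passed in either direction.

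At 2 divisions 3 genes fell, Plagl1 by 0.81 (limma, adjusted p = 0.0324), Ndn by 0.95 (adjusted p = 0.0132) and Dlk1 by 2.56 (adjusted p = 0.0267). In that comparison 6.12% of all genes were called and 2.06% were lower. Peg3 changed by -2.13 (adjusted p = 0.0773), Sgce by -1.02 (adjusted p = 0.139) and Slc38a4 by 0.80 (adjusted p = 0.0701), and with the replicate block, where 15.5% of all genes passed, so did these 3. In a fit of the 4 arrays compared Dlk1 alone passed, and without control replicate 1, control replicate 2 or replicate 1 of the induced cohort 0 passed.

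**Figure D3:**
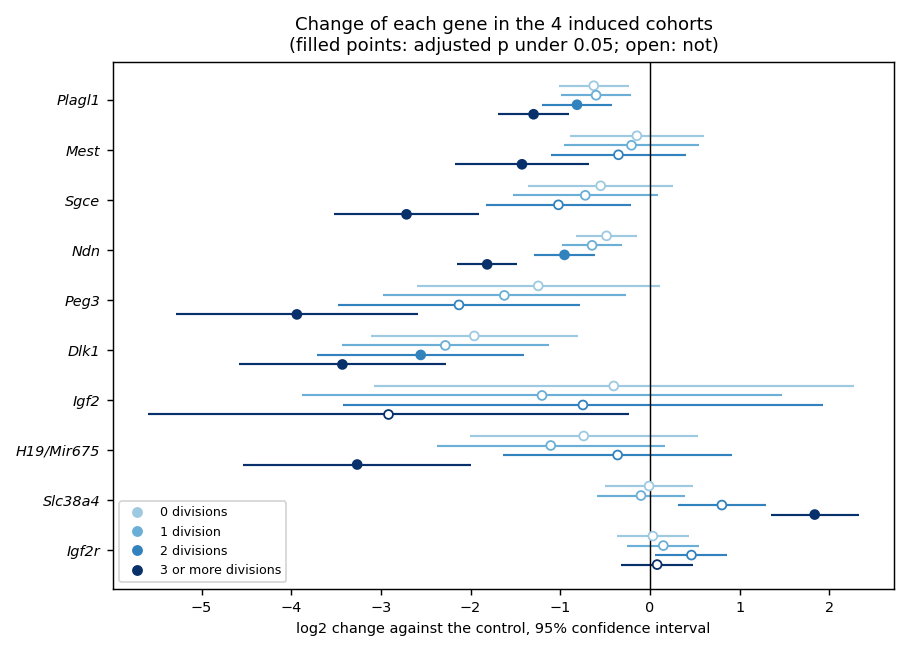
Log2 change of each gene against the control (horizontal axis) in the 4 induced cohorts, with 95% confidence intervals from limma. Points are filled where the adjusted p was under 0.05, over all genes or, for H19 and Mir675, over all probe sets. All 4 comparisons share the same control arrays.

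Within the later array set, 0 of the 9 genes passed between 2 and 0 divisions, where 0.055% of all genes did. At an unadjusted p under 0.05 limma counted Ndn (-0.47), Slc38a4 (0.81) and Igf2r (0.43) among them, and 1412 of all genes (7.76%). With the replicate block 0 members and 1.13% of all genes passed. For Igf2, Peg3 and Dlk1 the intervals were wide, -3.02 to 2.33, -2.24 to 0.47 and -1.75 to 0.56, in the fit without the replicate block.

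Against undivided induced cells, cells with 3 or more divisions had lower Plagl1, Mest, Sgce, Ndn and Peg3 and higher Slc38a4, where 13.9% of all genes were called, 5.44% lower and 8.46% higher. The largest decrease was that of Peg3, 2.69 ± 0.58 (SE) on the log2 scale (limma, adjusted p = 0.0228). Sgce dropped by 2.17 (adjusted p = 0.0088), Ndn by 1.33 (adjusted p = 0.00301) and Mest by 1.28 (adjusted p = 0.0375), and Slc38a4 rose by 1.85 (adjusted p = 0.00327). With the replicate block 8 members and 25.6% of all genes passed. Dlk1 changed by -1.47 (limma, adjusted p = 0.0936, or 0.0421 once blocked), and Igf2 by -2.51 (adjusted p = 0.204, or 0.00366 once blocked). The H19 and Mir675 probe set dropped by 2.53 (adjusted p = 0.0282 over all probe sets, of which 4.04% were lower), a call that was lost with a floor of 16 and without any single one of the 4 arrays compared (adjusted p up to 0.133). The 6 calls became 2 without replicate 1 of the undivided cohort or replicate 2 of the dividing one, and 3 without replicate 2 of the undivided cohort. This comparison crosses the array sets and shares its arrays with those above.

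From each group to the next, the arrays of both groups stood apart for differing numbers of members. From the control to 0 divisions 5 of the 10 genes were lower on both arrays, as given above. Between 0 and 1 division Peg3 alone was lower on both arrays, as were 13.3% of all genes. Between 1 and 2 divisions it was Ndn (11.2% of all genes), with 2 members higher (13.7% of all genes). From 2 to 3 or more divisions both arrays were lower for 9 of the 10 genes and higher for Slc38a4, with 24.6% of all genes lower and 30.8% higher. The first and the last of these steps cross the array sets, and only the first was among the comparisons tested.

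The replicate numbers carried a difference of their own. Igf2 was higher and Peg3 lower in replicate 1 in all 5 groups, and for Peg3 replicate 1 minus replicate 2 ran from -0.09 to -1.93. Meg3, the noncoding RNA expressed from the copy opposite to Dlk1, was lower in replicate 1 in all 5 groups too, with differences from -2.64 to -4.69. It read 7.31 and 10.67 in the control and 5.50 and 8.14 at 3 or more divisions, a change of -2.17 (limma, adjusted p = 0.482, or 0.00274 once blocked). For Rian, its neighbour, these ran from -1.66 to -3.09. Deviations from the group means correlated between same-numbered arrays in 10 of 10 pairs of groups (r from 0.477 to 0.872 across genes, which are not independent replicates).

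**Figure D4:**
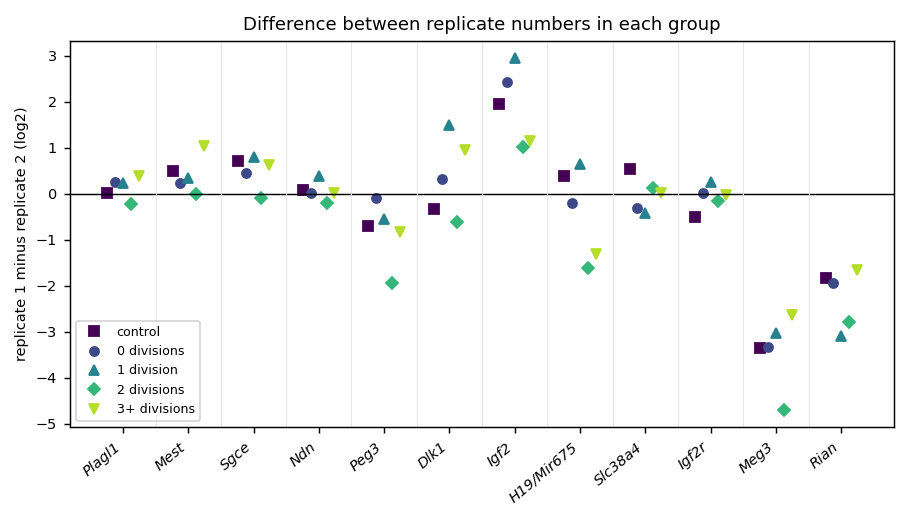
Log2 intensity of replicate 1 minus replicate 2 (vertical axis) in each of the 5 groups for the 10 genes and for Meg3 and Rian (horizontal axis). Igf2 lies above 0 in every group, and Peg3, Meg3 and Rian lie below 0 in every group.

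The neighbours of these genes in their imprinted clusters, a list chosen after values were seen, mostly did not pass in cells with 3 or more divisions. Of 24 listed neighbours 21 were measured, and 1 rose and 2 fell, where 15.9% of all genes rose and 11.7% fell. Beside Ndn, Peg12 rose by 1.41 (limma, adjusted p = 0.00273), from 4.36 and 4.23 to 5.55 and 5.87, while Snrpn changed by 0.18 and Ube3a by -0.09. Usp29, which shares its start region with Peg3, fell by 0.67, and Asb4, near Sgce, by 0.49, both dim probe sets that read at most 4.84 and 4.01 on any array. Peg10, the closest neighbour of Sgce, changed by -0.03 and read under 3.9 on every array. Copg2, which lies beside Mest, changed by 0.04.

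Among 18 other paternally expressed imprinted genes 2 rose and 3 fell, with a median change of 0.12. At 3 or more divisions against control 27.6% of all genes were called, 15.9% higher and 11.7% lower. Taken in either direction, this list and that of maternally expressed genes below lay near that share. Without replicate 2 of the induced cohort 1 of them fell. Mcts2, a translation factor copy, rose by 0.98, and Gab1, a signalling adaptor, fell by 1.71. Among 29 other maternally expressed ones 3 rose and 5 fell, with a median of -0.21. Both lists go by gene name, and which parental copy these fibroblasts expressed was not measured. Cdkn1c, the p57 inhibitor of cyclin-dependent kinases, fell by 4.70 (limma, adjusted p = 0.00173), from 10.83 and 9.61 in the control to 5.71 and 5.33. Decorin (Dcn), a matrix proteoglycan that is also in the fibroblast marker list, fell by 1.98. Gatm, a creatine synthesis enzyme, rose by 1.90 and Phlda2, a placental growth restraint, by 1.27. Blocked by replicate number, 37.8% of all genes passed in either direction, and 4 of the maternally expressed list rose. Without either array of the induced cohort 3 of this list's genes fell, and with the replicate block 8 did.

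The IGF pathway had lower levels of several secreted parts in cells with 3 or more divisions. Of 23 genes 10 were lower and 1 higher, with a median of -0.75, where 11.7% of all genes were lower and 15.9% higher. Igf1, the second ligand, fell by 3.34 (limma, adjusted p = 0.00623), from 10.91 and 12.14 to 8.66 and 7.71. Igfbp3, the main carrier of IGFs, fell by 3.86 (adjusted p = 0.000447). The proteases that free IGFs from their carriers fell as well, Pappa by 3.59 (adjusted p = 0.00231) and Htra1 by 2.89 (adjusted p = 0.000779). Without replicate 2 of the induced cohort the count of lower genes was 6.

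In the route that Igf2r serves, mannose 6-phosphate sorting to the lysosome, 5 of 20 genes rose and 6 fell, with a median of -0.16. Over all genes 15.9% rose and 11.7% fell. Gnptab, which builds the sorting tag, rose by 1.34 and Gnptg, its partner subunit, fell by 0.85. The enzyme Gusb rose by 1.08 and Ctsh, a cathepsin, fell by 2.12. In a fit of the 4 arrays compared 3 rose and 2 fell, and without replicate 2 of the induced cohort 2 rose and 1 fell.

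Relatives of Sgce and Ndn were lower in part at 3 or more divisions against control, where 11.7% of all genes were lower and 15.9% higher. In the dystrophin and sarcoglycan complex 6 of 11 genes fell and 1 rose (median -0.64), among them Sgcb by 1.86, Sspn by 1.39 and Sntb2 by 1.10, while Dtnb rose by 0.97. In a fit of the 4 arrays compared 3 fell, and 2 without replicate 2 of the induced cohort. In the MAGE family 4 of 7 fell (median -1.07), Maged2 by 2.65, Maged1 by 1.44, Mageh1 by 1.25 and Magee1 by 1.07.

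Among the Delta and Notch genes, to which Dlk1 is related, 5 of 18 rose, with a median of 0.17. Over all genes 15.9% rose and 11.7% fell, and with the replicate block 37.8% passed in either direction. Without control replicate 1 the count was 2, and with the replicate block 6 rose and 3 fell. Dlk2, the closest relative of Dlk1, rose by 2.10 (adjusted p = 0.00029), from 5.90 and 5.62 to 7.75 and 7.97, opposite to Dlk1. Notch4 rose by 1.62, Nrarp by 0.91 and Lfng by 0.68. Of 8 other listed Slc38 transporters, which need not be the whole family, only Slc38a10 passed, and it fell by 0.68. With the replicate block, where 37.8% of all genes passed in either direction, 2 others rose.

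Factors that keep or remove imprint methylation went both ways, with 6 of 20 higher, 1 lower and a median of -0.01. Over all genes 15.9% were higher and 11.7% lower. Without control replicate 2 or either array of the induced cohort 3 rose. Uhrf1, which guides the maintenance methyltransferase to newly copied DNA, rose by 2.73 (limma, adjusted p = 0.00183). Hells, a chromatin remodeller, rose by 2.34 and Dnmt1, that methyltransferase, by 1.05. Tet1, an enzyme that oxidises methylcytosine, fell by 1.31, a call lost without control replicate 1 and without either array of the induced cohort.

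Other measures also changed between the control and 3 or more divisions, where 15.9% of all genes rose and 11.7% fell. With the replicate block 37.8% of all genes passed in either direction. Of 10 fibroblast markers 6 fell (median -0.91), and their mean log2 level went from 13.11 and 12.97 to 11.99 and 11.54. The count was 3 without control replicate 2 or without replicate 2 of the induced cohort. Of 6 epithelial markers 3 rose, and their mean went from 4.28 and 4.37 to 7.27 and 7.13. Of 9 proliferation genes 8 rose (median 1.87), and of 14 quiescence genes 4 fell and 1 rose, or 8 and 3 with the replicate block and 2 fell without replicate 2 of the induced cohort. The proliferation median was already 1.11 at 0 divisions against control. There 0 of the 9 were called (0.297% of all genes), or 7 with the replicate block (3.25% of all genes). The medians of the other marker lists moved less, though single genes in them changed by more. Of 5 macrophage markers 1 was higher (Cd68, by 3.54) and 1 lower (Lyz2, by 1.39). Of 4 endothelial markers 1 was higher (Tek, by 2.44) and 1 lower (Kdr, by 0.55). Of 4 adipocyte markers 1 was higher (Pparg, by 2.00). The mean of 5 skeletal muscle markers lay between 4.29 and 4.56 on all arrays. The log2 difference between 3' and 5' control probe sets grows as RNA degrades. For Actb it was 0.26 on both control arrays and 0.49 and 0.50 at 3 or more divisions. Between them it was 0.35 and 0.29 at 0 divisions, 0.47 and 0.29 at 1, and 0.46 and 0.50 at 2. For Gapdh it was 0.06 and 0.03 in the control and 0.27 and 0.26 at 3 or more divisions. The part of any of these in the members' changes was not tested.

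Genes whose centred profile over the 10 arrays lay closest to a member are named by the root mean square difference of log2 values, as a description. Maged2 was closest to Sgce (0.108), Ikbip (0.111) and Gab1 (0.117) to Ndn, and Rusc1 to Plagl1 (0.10). Twsg1 was closest to Mest (0.129), Vegfc to Peg3 (0.275), Lgr5 to Dlk1 (0.377) and 6330403K07Rik to Igf2 (0.285). Rapgef5 (0.235) and Dlk2 (0.252) were closest to Slc38a4, and 4930583I09Rik (0.0894) to Igf2r. Among the members themselves Plagl1 and Ndn were the closest pair (0.244).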

How the data were processed

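The authors deposited 1 table of linear intensity for 45101 probe sets on 10 arrays, with array medians of 31.4 to 33.95. RMA appears in the submitters' processing notes for the earlier 4 arrays only, and for the later 6 the tool was not given in the sources used here. Planned tests allowed for log2 or linear values, and these proved linear. A floor of 1 was set, which moved 0 values, log2 was taken and the 10 arrays were quantile normalized. After 64 control probe sets were left out, 34945 probe sets had 1 gene in the platform's table and the one with the highest mean stood for its gene. Groups were compared with limma 3.58.1 in R 4.3.3 (lmFit and eBayes, two-sided, 5 residual degrees of freedom), with Benjamini-Hochberg adjustment over all 18193 genes and calls at 0.05, and H19 and all single probe sets in a fit over 45037 probe sets. The script was tested on simulated data. Only 10 arrays limit the precision. The numbers pair the samples, as deviations correlated over 0.1 in 10 of 10 pairs of groups. The blocked fit, other normalizations, floors, filters, probe set rules and left-out arrays were tried. The members and lists were chosen with earlier results of these data known. Named genes are the members, up to 4 called genes a list with the largest change at 3 or more divisions against control, and the 2 genes nearest each member in profile, of which the nearest and some second ones are printed. Other genes were named after their values were seen.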

Additional observations from a re-analysis of the deposited data

How the results depend on the processing

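At 3 or more divisions against control 7 of 9 members were called, and 6 to 7 when single arrays were left out. At 2 divisions against control the count of 3 became 1 with a floor of 16, 5 with the mean of all probe sets, 6 with the replicate block, 1 in the 4 arrays compared and 0 to 2 without single arrays. At 1 division the count of 0 became 3 with the replicate block, and in the fit of all probe sets 2 genes, Plagl1 and Ndn, had a probe set called, not the one that stands for the gene. Against undivided cells the count of 6 became 3 with a floor of 16 and 2 to 5 without single arrays. In all, 67 of 80 counts under these alternatives stayed on their side, and 0 reversed. The replicate block is balanced over the groups, so it changes errors and not differences. Over all genes it raised the calls from 54 to 591 at 0 divisions, 226 to 1277 at 1, 1114 to 2827 at 2, 10 to 205 between 2 and 0, and 2529 to 4652 between 3 or more and 0. Without single arrays these counts were 4 to 32, 4 to 77, 97 to 573, 0 to 13 and 391 to 1480, and 2701 to 4025 of 5020 at 3 or more divisions against control. With an array left out, the lone sample is assumed to vary like the other groups, and the replicate numbers are no longer balanced. Fits within 1 array set could not be made for comparisons that cross the sets. Centring arrays on their medians moved the median of all genes by under 0.1. The cause of these shifts was not tested.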
